A study of Homo sapiens with 32 samples.

Results

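The cytosolic ribosomal protein genes were examined for m6A in MeRIP-seq peak lists, where an antibody against N6-methyladenosine enriches RNA fragments (IP) and peaks are called over the unenriched Input. Members were the protein-coding genes of the GRCh38 RefSeq gene table with a symbol of RPL or RPS followed by a digit, plus RPLP0, RPLP1, RPLP2 and RPSA, without the RPS6K kinases. The rule gave 91 genes of the 20033 protein-coding genes on chromosomes 1 to 22, X and Y. Of these, 2 lie on the Y chromosome and are counted but given no value, which left 89. A further 4 symbols fit the letters of the rule but are not single ribosomal protein genes. They are the readthrough genes RPS10-NUDT3, RPL17-C18orf32 and RPL36A-HNRNPH2, and RPS19BP1, which encodes a binding partner of RPS19. Without them 85 genes remained, called core members here, 53 for the large subunit (RPL) and 32 for the small subunit (RPS).

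The libraries came from 786-O, a clear cell renal cell carcinoma line, and RPTEC, an hTERT-immortalized renal proximal tubule line that serves as a surrogate for normal kidney. In each there was the SETD2 wild-type parent (WT), the knockouts SETD2KO-1 and SETD2KO-2, and SETD2KO-1R, which is SETD2KO-1 carrying a FLAG-tagged full-length SETD2 transgene. Each knockout and each rescued line is 1 clone, no line was treated, and each of the 4 lines per cell line had 2 IP libraries, 16 in all. SETD2KO refers to the 4 libraries of both knockouts of a cell line, and SETD2-expressing to the 4 of WT and SETD2KO-1R. Nothing in the labels says that the 2 libraries of a line came from separate cultures, so p-values measure the spread between libraries, which may be technical. The names of the deposited lists carry a different experiment label for each cell line, so cell line and experiment cannot be told apart. The lists held 19249 to 39670 peaks, each peak with its position, its summit and a score, but no read counts, so the depth is unknown. They hold no expression values either, so neither the cell lines' markers nor SETD2 could be checked in them, and in bulk RNA fewer cells with a mark and less of it per cell cannot be told apart.

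Ribosomal proteins build the large and small subunits around the ribosomal RNAs, and their mRNAs are among the most abundant of the cell. Most of these mRNAs start with a 5′ terminal oligopyrimidine (TOP) tract, a C followed by a run of C and T, through which their translation answers to mTOR signalling. Many of the genes are short, have small exons and carry small nucleolar RNAs in their introns. m6A is placed on nascent RNA by a complex with METTL3 and is typically sparse near exon junctions and dense in long internal exons and around stop codons, which is why short-exon housekeeping genes are usually thought of as poor in m6A.

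The start windows below are shown because m6A peaks lay over these annotated starts in at least 5 of 16 libraries. Each line gives 10 bases before to 20 bases after the start, 5′ to 3′ (RefSeq, GRCh38.p14), and capitals mark the run of C and T that begins with a C at the start, where there is one.
RPS29, chr14:49598691-49598720, minus strand: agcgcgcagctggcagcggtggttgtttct
RPL36AL, chr14:49620607-49620636, minus strand: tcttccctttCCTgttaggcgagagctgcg
RPL38, chr17:74203668-74203697, plus strand: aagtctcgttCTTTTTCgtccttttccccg
RPL7A, chr9:133348208-133348237, plus strand: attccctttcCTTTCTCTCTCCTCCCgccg
RPS19, chr19:41860394-41860423, plus strand: cccgccccctagagccgcggccacgtgcga
RPL17, chr18:49492446-49492475, minus strand: ttccctaagcagcctgaggtgagtgtttct
RPS14, chr5:150449720-150449749, minus strand: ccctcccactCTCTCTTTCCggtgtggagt
RPS9, chr19:54200848-54200877, plus strand: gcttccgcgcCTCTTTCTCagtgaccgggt
The table of starts held 68 of the 85 core members. A C at the start followed by enough C or T to make a run of at least 5 bases stood at a start of 47 of these, 69.1%, against 6.24% of the 15841 protein-coding genes in the table. Of the 8 windows shown, RPL38, RPL7A, RPS14 and RPS9 have such a run. The letters are a description of the annotated start, which need not be the start used in these cells.

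Most ribosomal protein genes had a peak somewhere, but few had it regularly. Of the 89 members, 74 (83.1%) had a peak overlapping the gene body in at least 1 library, against 67.0% of all protein-coding genes, whereas 11 members (12.4%) had a peak in all 16 libraries, against 23.1%. A further 14 members were called in 12 to 15 libraries (15.7%, against 15.9%), 32 in 4 to 11 (36.0%, against 18.8%) and 17 in 1 to 3 (19.1%, against 9.21%). Among core members the counts were 70 with a peak and 9 in all 16. Core members are short, with a median gene body of 5035 bp against 24130 bp for all protein-coding genes. Of the 10732 protein-coding genes no longer than the longest core member (27723 bp), 57.6% had a peak in any library and 15.2% in all 16. These short protein-coding genes had a median body of 9346.5 bp, so they are not matched to the core members in length.

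**Figure D1:**
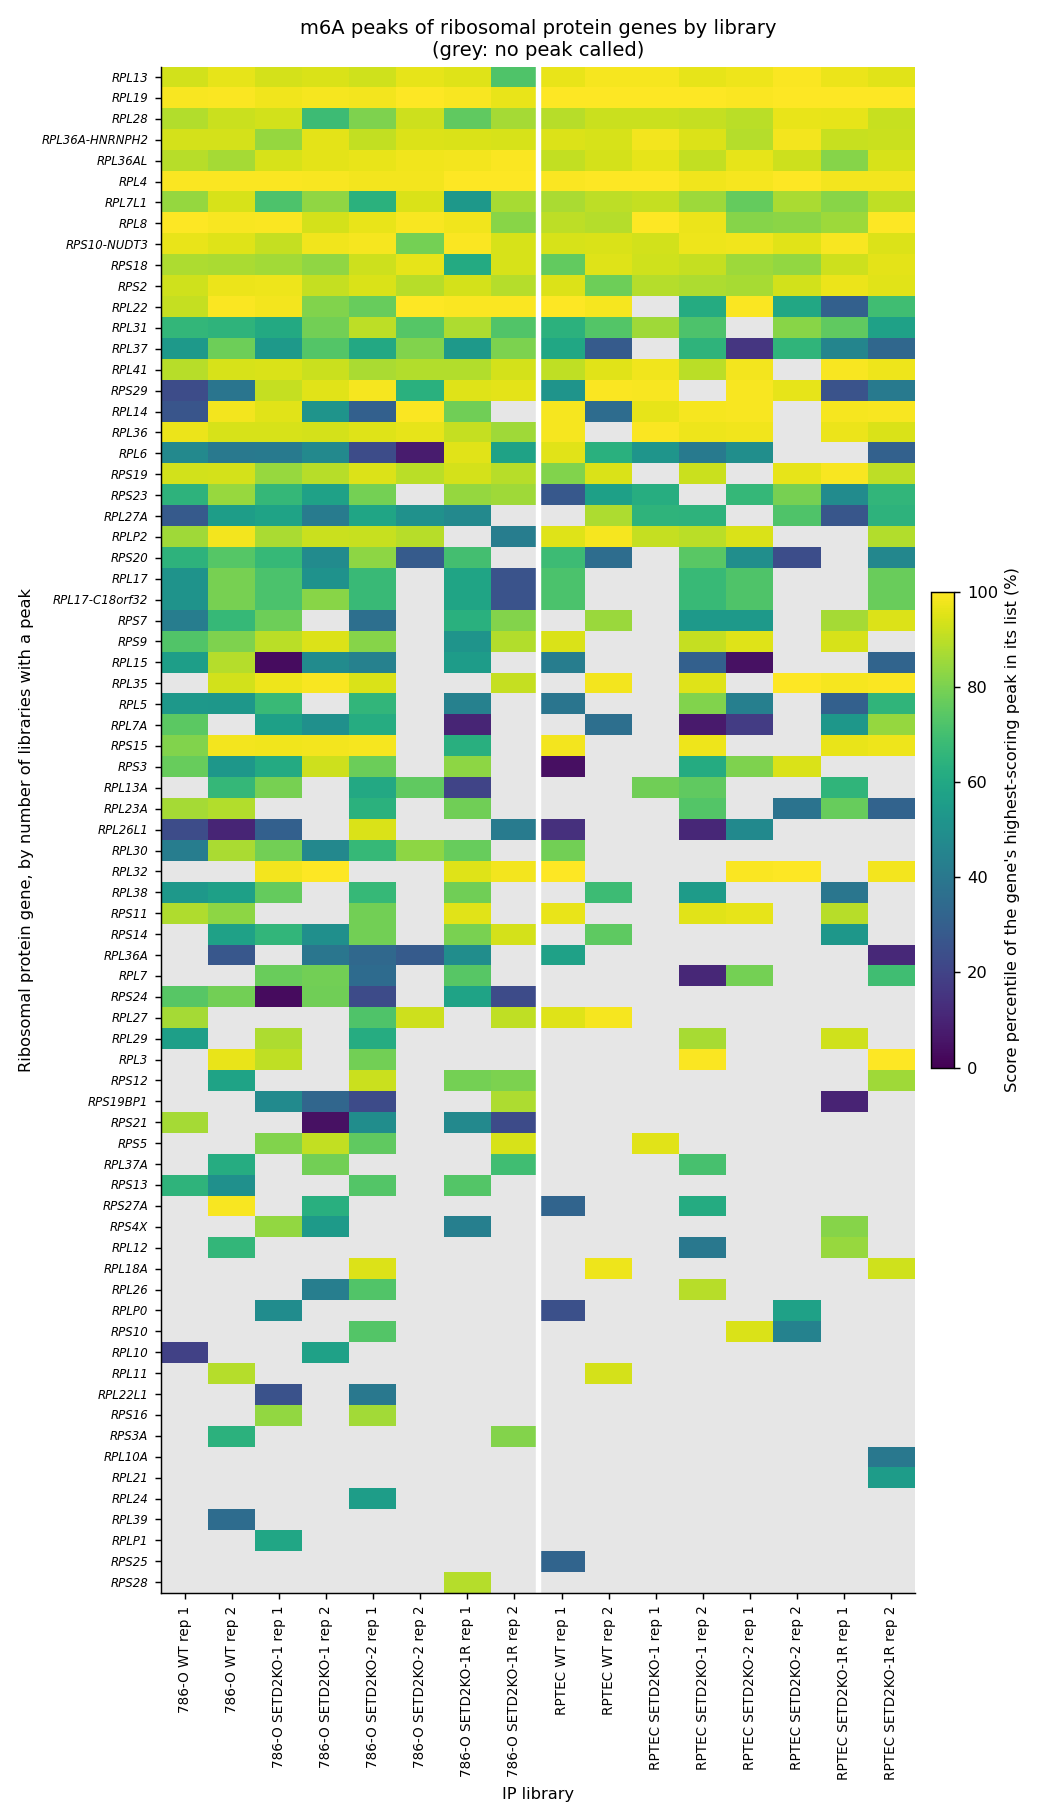
Rows are 73 of the 74 members with a peak, columns the 16 IP libraries (786-O left, RPTEC right), and colour is the score percentile of the member's highest-scoring peak within its own list, from 0 to 100, with grey for no peak. The 11 members in the top rows have a peak in all 16 libraries, rows below have grey cells in both cell lines or in 1 of them, and RPS24 is called in 7 786-O and 0 RPTEC libraries.

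The core members called in all 16 libraries were 7 of the 53 large-subunit genes (13.2%) and 2 of the 32 small-subunit genes (6.25%). They were RPL4 and RPL19, which reach into the peptide exit tunnel region and the subunit bridges, RPL8, which lies near the peptidyl transferase centre, RPL13 and RPL28, the paralogues RPL36AL and RPL7L1, and the small-subunit proteins RPS2 and RPS18. Also called in all 16 were the readthrough genes RPL36A-HNRNPH2 and RPS10-NUDT3, whose recurrent peaks lay in HNRNPH2 and NUDT3. RPS10 itself was called in 3 libraries and RPL36A in 7. Among those in 15 libraries were RPL22, RPL31, RPL37, RPL41 and RPS29, and in 14 were RPL6, RPL14, RPL36, RPS19 and RPS23. RPS19 is the gene most often mutated in Diamond-Blackfan anaemia. In 13 libraries were RPL27A, RPS20 and RPLP2, an acidic protein of the stalk that recruits elongation factors.

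No peak in any library was found in 15 members, among them RPL3L, RPL9, RPL10L, RPL18, RPL23, RPL34, RPL35A, RPL39L, RPS6, RPS15A, RPS26, RPS27, RPS27L and RPSA. RPS6 is the protein whose phosphorylation by S6 kinases is the usual readout of mTOR activity, and RPSA doubles as a laminin receptor. RPL3L, RPL10L and RPL39L are known from muscle or testis. Without read counts, a missing peak says that the caller found none, not that m6A was absent.

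Most paralogue pairs were called unequally. RPL22 was called in 15 libraries and RPL22L1 in 2, the first libraries of SETD2KO-1 and SETD2KO-2 in 786-O. RPL7L1 was called in all 16 and RPL7 in 7, RPL36AL in all 16 and RPL36A in 7, and RPL26L1 in 8 and RPL26 in 3. In these last 3 pairs the gene named as the copy was called more often. RPL3 was called in 5 libraries, RPL10 in 2, RPL39 in 1 and RPS4X in 4, while RPL3L, RPL10L and RPL39L were called in 0. These genes share sequence with each other and with the 1966 pseudogenes that carry a core member's name, and how reads shared between copies were counted is not given in the sources used here. Core members called in 12 or more libraries had a median of 10 named pseudogenes (range 0 to 64), those called in 1 to 11 had 15 (0 to 137) and those never called had 26 (0 to 74).

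Per library, 25.8% to 66.3% of the members had a peak, with a mean of 45.5% ± 11.4 (SD, n = 16), against 46.7% ± 3.27 of all protein-coding genes and 37.0% ± 4.07 of those no longer than the longest core member. The order of members and all genes turned with the lists used. Members minus all genes was -1.23 percentage points here, 1.69 with each list reduced to the size of the shortest and 3.59 with the upper 50% of each list by score, all smaller than the spread between libraries. The spread between libraries was the larger feature. RPTEC SETD2KO-1 had 23 members called in replicate 1 and 45 in replicate 2, and 786-O SETD2KO-2 had 59 and 28. The share of core members exceeded that of the short protein-coding genes in 14 of 16 libraries. Large-subunit genes were called at 46.7% ± 11.3 and small-subunit genes at 39.8% ± 13.6 (SD, n = 16), with the large subunit higher in 14 libraries.

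Other genes of translation had peaks more often. Mitochondrial ribosomal protein genes, encoded in the nucleus for the mitochondrial ribosome, were called at 54.6% ± 12.6, above core members in 15 of 16 libraries. Other mRNAs with a TOP tract, such as those of elongation factors and PABPC1, were called at 72.7% ± 11.6, and ribosome biogenesis factors at 87.2% ± 7.90 (SD, n = 16 each), both above core members in all 16 libraries. In all 16 libraries a peak was found for 11 of 77 mitochondrial ribosomal protein genes, 6 of 16 other TOP mRNAs and 12 of 25 biogenesis factors. The median gene body was 8618 bp for the mitochondrial list, 16102 bp for the TOP list and 14826 bp for the biogenesis list, each above that of the core members.

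**Figure D2:**
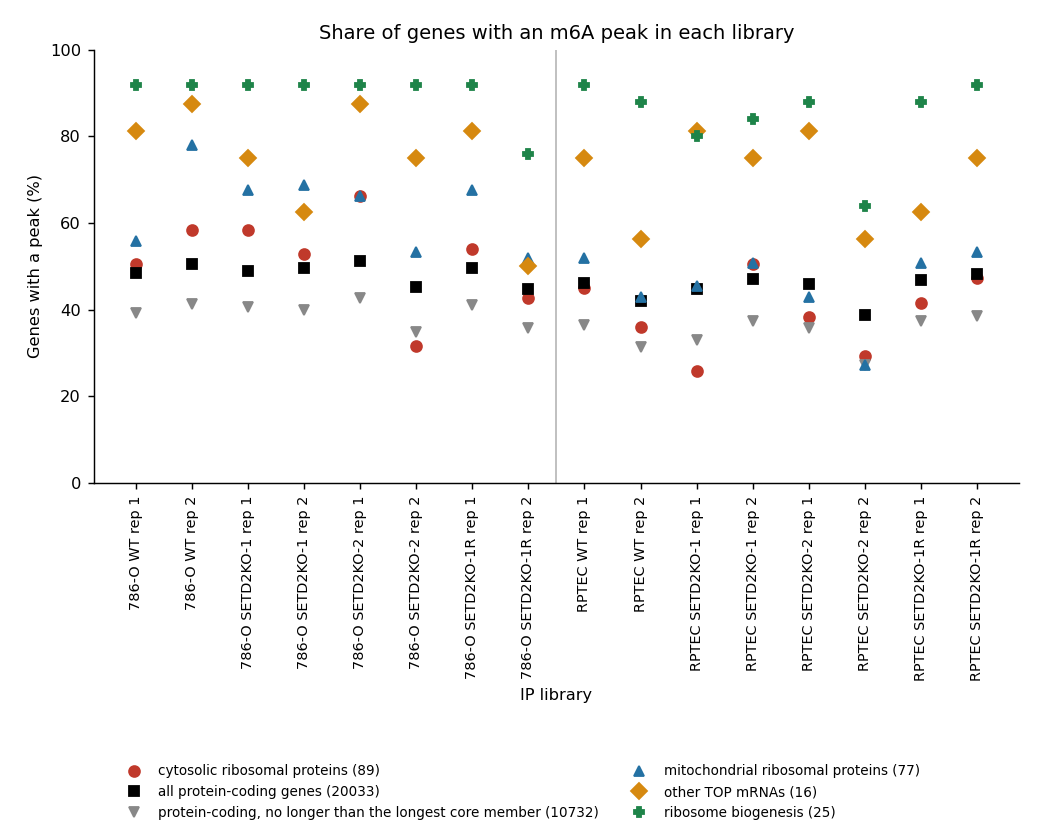
Each point is the share of a gene list (y axis, percent, with the list size in the legend) with a peak in 1 IP library (x axis). The cytosolic ribosomal proteins range from 25.8% to 66.3% while all protein-coding genes range from 38.6% to 51.2%, and ribosome biogenesis factors lie above the ribosomal proteins in each library.

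The replicate libraries of a line shared member calls less often than calls of other genes. Over the 8 lines, 418 combinations of a member and a line had a peak in at least 1 of the 2 libraries, and 230 of them (55.0%) in both. Among core members the share was 53.8%, and for all protein-coding genes it was 77.6%. It was not computed for the short protein-coding genes, so the part of gene length was not tested. By line the share ranged from 41.7% to 70.7% for members and from 69.8% to 82.3% for all genes, and it was lower for members in 8 of 8 lines.

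The member peaks that were called scored high. The 955 member peaks had a median score percentile of 71.0 to 88.9 per library, where 100 is the highest score of a list, against 51.1 to 53.0 for all peaks in protein-coding genes, and the members were higher in 16 of 16 libraries. In the top 10% of their list were 16.9% to 45.9% of the member peaks of a library, against 10.6% to 11.6% of all peaks in protein-coding genes. Member peaks were shorter, with a median of 291 to 396 bp per library against 365 to 435 bp. These peaks include 52 in RPS10-NUDT3 and 24 in RPL36A-HNRNPH2, whose recurrent peaks lay in NUDT3 and HNRNPH2. Scores and lengths were not computed for core members alone. Another protein-coding gene was overlapped by 165 of the 955 (17.3%), and a small nucleolar RNA gene by 14. The 29 core members that hold such a gene were called in a median of 8 libraries and the other 56 in a median of 5, with 2 and 13 never called. Peaks over such pairs cannot be assigned to either gene by position, and the lists have no strand.

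Peaks of the 16 lists that overlapped each other were merged into regions, 175 in members, the readthrough genes included. Of these, 9 were called in all 16 libraries (5.14%, against 4.81% of 82672 regions in all protein-coding genes) and 52 in 1 library (29.7%, against 35.7%). Summits of member regions were placed closely. In the 53 member regions called in 8 or more libraries, the median SD of the summit position was 25.3 bp, against 128 bp for the 18689 such regions of all protein-coding genes. Restricted to regions of 1 peak per library and at most 600 bp, a comparison chosen after seeing the data, the median was 15.2 bp over 30 member regions and 40.9 bp over 5088 regions.

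The most regular region was that of RPL4 at chr15:66499571-66499923 (hg38, within the gene body at chr15:66498015-66504855). It was called in 16 of 16 libraries at percentiles of at least 97.7, and its summits had an SD of 8.62 bp. RPL4 covered length, the number of bases of the gene body under peaks, was 851 to 1134 bp in 786-O (median 874.5) and 610 to 898 bp in RPTEC (median 834). A region of RPL36AL at chr14:49618928-49619362 was called in 16 libraries with a median percentile of 93.9 and a summit SD of 25.3 bp, and a region of RPS18 at chr6:33275489-33276032 in 16 with a median of 89.4 and an SD of 12.6 bp. RPL13 had a region at chr16:89562504-89562917 in 15 libraries (median 96.5, SD 8.94 bp), RPL41 at chr12:56117260-56117591 in 15 (93.6, 10.2 bp), RPL36 at chr19:5690693-5691541 in 14 (95.7, 8.84 bp) and RPL19 at chr17:39202543-39202952 in 14 (99.2, 8.14 bp).

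Most other high-scoring regions were called in only part of the libraries. Taking regions with a median percentile of at least 95 in 3 or more libraries, there were 15 in 12 member genes. Each of the 15 had a summit SD under 20 bp and no peak under a percentile of 85.1. Of these regions, 11 (73.3%) were called in 3 to 9 libraries and 1 in all 16. Of the 1733 such regions in all protein-coding genes, 49.6% were called in 3 to 9 libraries and 13.9% in all 16. Their share with a summit SD under 20 bp was not computed. In RPL22, which binds RNA beyond the ribosome, the region at chr1:6186780-6187313 was called in 8 libraries at percentiles of 98.2 to 99.9 and not in the other 8. Both SETD2KO-1R libraries of 786-O and both WT libraries of RPTEC called it, while WT, SETD2KO-1 and SETD2KO-2 of 786-O and SETD2KO-2 of RPTEC were split between their replicates. RPL32 at chr3:12839597-12840037 was called in 8 libraries with a median of 98.9, RPS15 at chr19:1439756-1440332 in 8 at 96.6 to 98.8, and RPL14 at chr3:40461751-40462119 in 9 at 95.4 to 99.4. A region of RPL35 at chr9:124858056-124858875 was called in 3 RPTEC and 0 786-O libraries at 98.7 to 99.9. In RPL19, the 2 RPTEC libraries without the main region, SETD2KO-1 replicate 2 and SETD2KO-1R replicate 1, had a peak instead at chr17:39204280-39204548, where 4 libraries were called at percentiles of at least 99.4. The highest-scoring peak of RPL19 was thus not at the same place in each library.

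**Figure D3:**
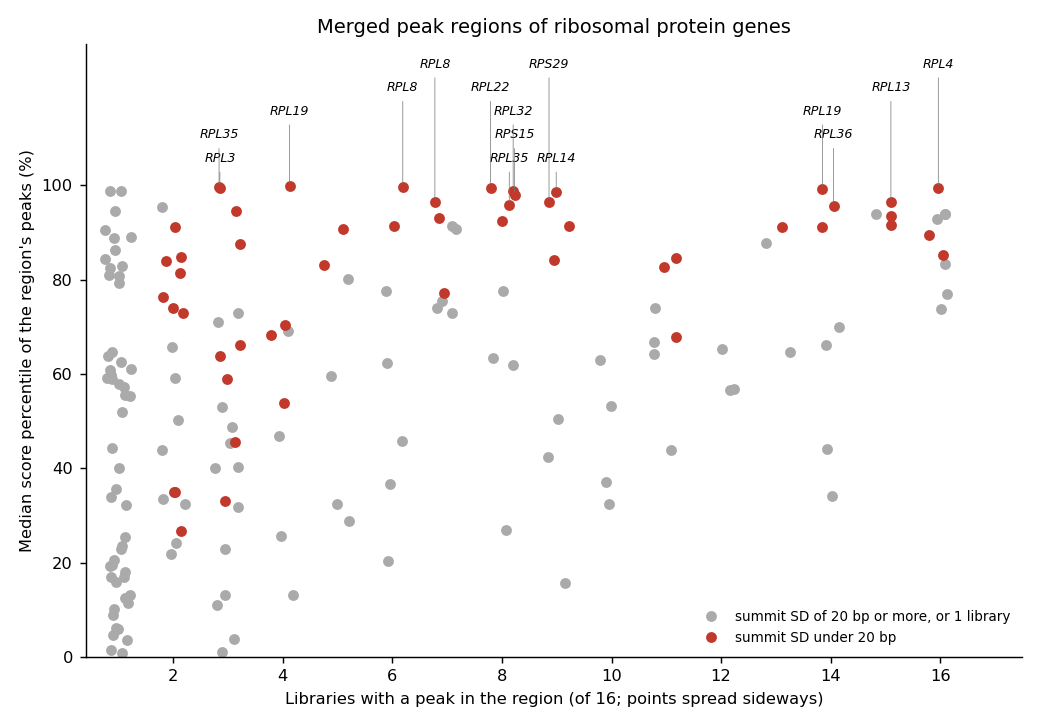
Each point is 1 of the 175 merged member regions, with the number of libraries with a peak on the x axis (of 16, points spread sideways) and the median score percentile of its peaks on the y axis (%). Red points have a summit SD under 20 bp, and labels name the 15 regions with a median percentile of at least 95 in 3 or more libraries, of which 11 were called in 3 to 9 libraries.

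Member summits lay further towards the 5′ end than those of other genes, when pooled over libraries. Strand was known for 68 core members, with 696 summits in the gene body over the 16 libraries. A region called in several libraries is counted in each of them, so these are not 696 separate places. Of these, 24.1% were in the first 10% of the gene body, against 13.4% of the summits of all protein-coding genes and 14.4% of those of short protein-coding genes. The last 25% of the gene body held 18.8%, against 38.0% and 35.3%. The excess was larger in 786-O, where the share in the first 10% was 27.9% ± 8.99 for members and 13.7% ± 1.47 for all genes, than in RPTEC, with 15.9% ± 7.34 and 12.6% ± 2.08 (SD, n = 8 libraries each), and the difference between the cell lines was not tested. The share in the first 10% was above that of all genes in 14 of 16 libraries, and the share in the last 25% was below it in all 16. The gene bodies come from the annotation and include introns, so this is a position in the gene and not in the mRNA.

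**Figure D4:**
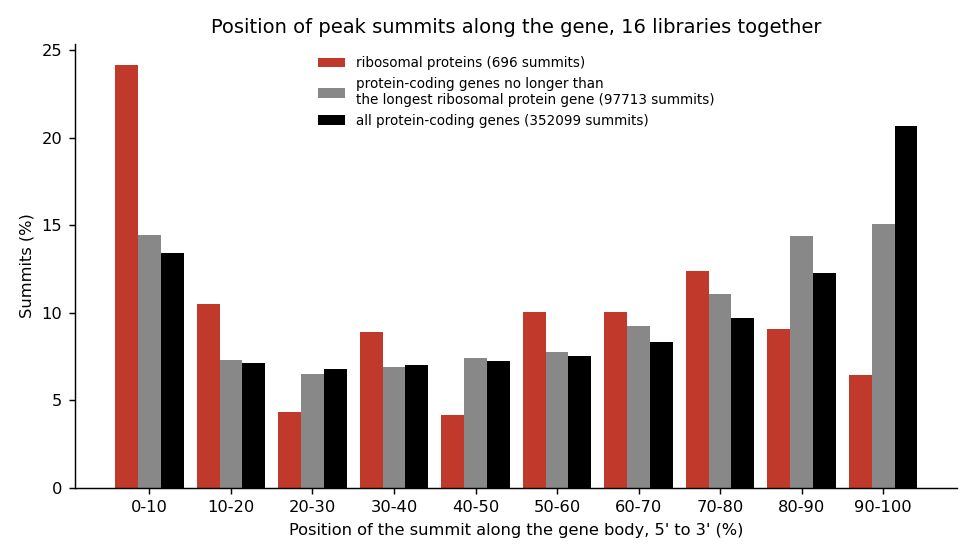
Bars give the share of peak summits (y axis, percent) in each 10% of the gene body from 5′ to 3′ (x axis), for 68 core ribosomal protein genes, for protein-coding genes no longer than 27723 bp and for all protein-coding genes with known strand. The ribosomal proteins have 24.1% in the first bin and 6.47% in the last, while all protein-coding genes have 13.4% and 20.6%.

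Several of these 5′ regions recurred. RPL22 had 1 at chr1:6199050-6199640 in 14 libraries, RPS23 at chr5:82277901-82278487 in 14, RPS19 at chr19:41860266-41860690 in 11, RPL17 at chr18:49491786-49492554 in 11, RPL19 at chr17:39200327-39200640 in 9, and RPL35, RPL38 and RPS15 in 8 each. Their median percentiles were 70.0 for RPL22, 66.2 for RPS23, 64.2 for RPS19, 67.8 for RPL17 and 61.9 for RPL38, and 84.1 for RPL19. The region of RPL35 at chr9:124861564-124862383, with 95.8, also overlaps ARPC5L.

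Peaks over the annotated start itself were found mainly in 786-O. Among the 68 core members with a start in the table, 30 had a peak over it in at least 1 library (44.1%, against 31.0% of all protein-coding genes), but 1 had it in 8 or more (1.47%, against 9.16%). All 30 were found in 786-O and 9 of them also in RPTEC. Of the 4907 protein-coding genes with a peak over a start, 31.6% were found in 786-O libraries alone and 10.5% in RPTEC libraries alone. Per library, 1 to 18 core members had such a peak in 786-O (median 9) and 1 to 4 in RPTEC (median 1.5). As mean shares, these are 14.5% ± 7.80 of members against 12.6% ± 3.15 of all genes in 786-O, and 3.12% ± 1.99 against 8.78% ± 2.87 in RPTEC (SD, n = 8 libraries each). The library with 1 in 786-O was SETD2KO-2 replicate 2, and replicate 1 of that clone had the 18. When each list was reduced to its highest scores up to the size of the shortest list, a setting added after the data had been seen, the numbers were 0 to 13 (median 7.5) and 1 to 3 (median 1). RPL38 and RPL7A, whose starts are shown above, had a peak over the start in 7 libraries each, RPS14 in 6, all of 786-O, and RPS9 in 5, all of 786-O. RPS14 is the gene lost in the 5q- syndrome. Of the 47 members with a TOP run, 22 had a peak over a start (46.8%, against 38.0% of all genes with such a run), and of the 21 without, 8 (38.1%, against 30.5%). In 3 of the 22, RPL10, RPL13 and RPS19, the peak lay over another annotated start that has no such run, so 19 of 47 (40.4%) had a peak over the start with the run. The like share over all genes was not computed, and the 38.0% counts a peak over any start. RPS29 was the member with a peak over its start in 8 libraries, in a region that also overlaps LRR1, and the start region of RPL7A also overlaps MED22.

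The comparison of the cell lines asked which members were called more often, or over more bases, in 786-O or in RPTEC. By Fisher's exact test on the number of libraries with a peak (two-sided, 8 against 8, Benjamini-Hochberg over 13418 protein-coding genes), 0 of 74 members passed an adjusted p of 0.05, where 150 of all genes did (1.12%, and 0.425% with 786-O higher). At an unadjusted p of 0.05, 3 members passed (RPS24, RPL30 and RPS21), each higher in 786-O, 4.05% of members where 7.44% of all genes passed and 4.33% did so with 786-O higher. RPS24 was called in 7 of 8 786-O and 0 of 8 RPTEC libraries (Fisher's exact test, p = 0.0014, adjusted p = 0.0632). RPL30 was called in 7 and 1 (adjusted p = 0.227 by the same exact test) and RPS21 in 5 and 0 (adjusted p = 0.41). Next by p were RPS13, with 4 and 0, and RPS14, with 6 and 2. Without 786-O SETD2KO-2 replicate 2, the library in which RPS24 had no peak, its adjusted p was 0.0132, again by Fisher's exact test, and without any other library it was 0.0525 to 0.0605. In all, 11 members had a peak in 786-O alone (14.9%, against 9.20% of the genes with a peak) and 3 (RPL10A, RPL21 and RPS25, in 1 library each) in RPTEC alone (4.05%, against 7.38%).

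The covered length gave more calls. By an exact permutation test of mean covered bases over all arrangements of 8 against 8 libraries, 4 of 74 members (5.41%) passed an adjusted p of 0.05 where 11.4% of all genes did, and 4 of 4 were higher in 786-O, the direction of 8.71% of all genes. The median difference of the members tested, 786-O minus RPTEC, was 104 bp, against 135 bp for all genes tested, and the 786-O lists held more peaks (25710 to 39670 against 19249 to 31207).

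RPL19 covered length was 605 to 942 bp in 786-O (median 650) and 337 to 615 bp in RPTEC (median 366). The ranges overlapped by 1 library on each side, 786-O SETD2KO-1 replicate 2 and RPTEC SETD2KO-2 replicate 2. The means were 721.5 ± 134 and 429.8 ± 108 bp (SD, n = 8 each, exact permutation test, adjusted p = 0.00844). The 5′ region of RPL19 was called in 6 786-O and 3 RPTEC libraries, and the main region in 8 and 6. This call held under each of the 23 alternatives run for it, with adjusted p from 0.00798 to 0.017.

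RPL41, which encodes a very small protein at the interface of the subunits, covered 288 to 686 bp in 786-O (median 300) and 0 to 291 bp in RPTEC (median 274.5). Its main region was called in 8 and 7 libraries, and its start region in 3 and 0. The adjusted p of 0.0199 by the exact permutation test ranged from 0.00974 to 0.214 over 23 alternatives, of which 12 kept the call. It was lost without any 1 of the 8 RPTEC libraries.

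RPS24, also mutated in Diamond-Blackfan anaemia, covered 273 to 855 bp in the 7 786-O libraries with a peak and 0 bp in the other 786-O library and in the 8 RPTEC libraries. Its peaks in 786-O did not recur at 1 place. They fell into 5 regions, of which the most often called was found in 3 libraries, at percentiles of 2.92 to 78.6. The adjusted p by the exact permutation test was 0.0199, and 21 of 23 alternatives kept the call. It was lost with each list reduced to the size of the shortest (0.296, by the same test) and with the upper 50% by score (0.282).

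RPL8 covered 366 to 895 bp in 786-O (median 675) and 307 to 615 bp in RPTEC (median 373), with an adjusted p of 0.0466 by the exact permutation test. The region called in all 16 libraries was joined by others that were called in 6 786-O and 1 RPTEC libraries, and in 4 and 2. Of 23 alternatives 7 kept the call, and the adjusted p ranged from 0.0171 to 0.0815. Among the comparison lists, 5 of 72 mitochondrial ribosomal protein genes tested (6.94%), 1 of 16 other TOP mRNAs (6.25%) and 3 of 24 biogenesis factors (12.5%) passed for covered length, each higher in 786-O, where 8.71% of all genes did.

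**Figure D5:**
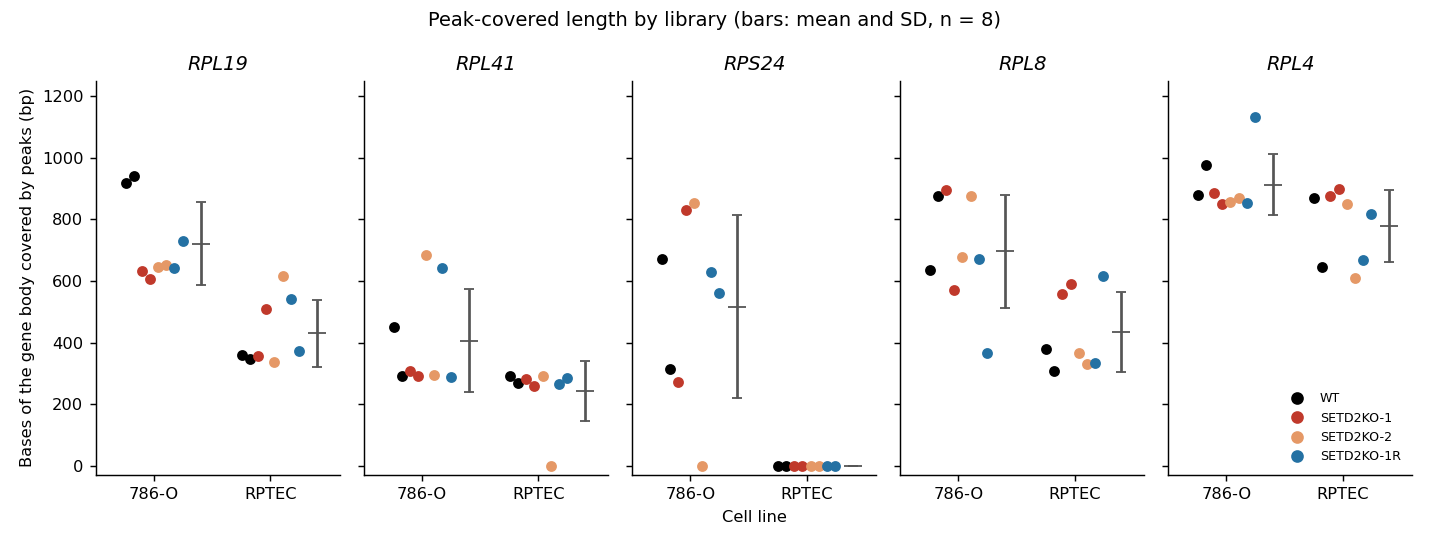
Each point is the number of bases of the gene body covered by peaks (y axis, bp) in 1 library, for 5 members in the 8 libraries of each cell line (x axis), coloured by line, with bars for the mean and SD (n = 8). RPL19 lies between 605 and 942 bp in 786-O and between 337 and 615 bp in RPTEC, and RPS24 is at 0 bp in the 8 RPTEC libraries and in 1 of 786-O.

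The comparison of SETD2KO with SETD2-expressing libraries asked whether loss of SETD2, the enzyme that adds the third methyl group to histone H3 lysine 36, moved m6A peaks of ribosomal protein genes, and no member was called. In 786-O, 46.5 ± 13.3 members had a peak in SETD2KO and 45.8 ± 5.91 in SETD2-expressing libraries. In RPTEC the numbers were 32.0 ± 9.83 and 37.8 ± 4.35 (SD, n = 4 each). As mean shares these are 52.2% and 51.4% of members in 786-O, against 48.8% and 48.3% of all protein-coding genes. For RPTEC they are 36.0% and 42.4%, against 44.1% and 45.8%. By Fisher's exact test, 0 of 71 members in 786-O and 0 of 63 in RPTEC passed an adjusted p of 0.05, as did 0 of 12428 and 0 of 12183 protein-coding genes (0%). At an unadjusted p of 0.05 the members were again 0 and 0, where 0.708% and 0.911% of all genes passed. This design cannot give an exact p under 0.0286, and the smallest adjusted p over all genes was 1 for calls.

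No member was called in 4 libraries of one side and at most 1 of the other. The largest difference in calls was 2 libraries, for 12 members in 786-O and 8 in RPTEC. In 786-O, 28 members were called equally often on both sides, 23 more often in SETD2KO and 20 more often in SETD2-expressing libraries. These are 39.4%, 32.4% and 28.2% of the members tested, against 60.4%, 20.5% and 19.1% of all genes tested. In RPTEC the counts were 28, 8 and 27, or 44.4%, 12.7% and 42.9%, against 54.6%, 18.4% and 27.0%. The RPTEC SETD2KO lists held 19249 to 30614 peaks and the SETD2-expressing lists 23126 to 31207, and the part of list size in this was not tested.

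By covered length, 0 members passed in either cell line, adjusted or at an unadjusted p of 0.05 (exact permutation test), where 5.22% of genes in 786-O and 4.67% in RPTEC passed unadjusted. The smallest p was that of RPL13 in 786-O. It covered 1259, 1100, 1165 and 753 bp in the SETD2KO libraries and 1026, 400, 690 and 332 bp in the SETD2-expressing libraries. These overlap, since the first WT library lies within the SETD2KO range (exact permutation test, p = 0.0571, adjusted p = 0.684). RPL19 covered 919 and 942 bp in the WT libraries of 786-O and 605 to 730 bp in the other 6, so the SETD2KO-1R libraries, at 642 and 730 bp, lay closer to the knockouts than to WT. In RPTEC its WT libraries, at 361 and 346 bp, were among the lower ones. A difference of the SETD2 effect between the cell lines was called for 0 of 74 members and 0% of genes. Unadjusted, RPS3, at the mRNA entry of the small subunit, and RPS14 passed (exact permutation of sides within each cell line, p = 0.0359 and 0.049, adjusted p = 0.686 and 0.758), 2.70% of members where 6.53% of genes did.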

How the data were processed

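MeRIP-seq was analysed in 16 IP libraries. According to the study's methods, the authors aligned with STAR, counted with HTSeq 2.0.3, scaled by spiked-in bacterial RNA and called peaks against Input (MACS2 2.2.9.1, q of 0.05). The submitters' processing notes name hg38, and 1 peak list was deposited per IP library. Libraries were stranded and made from total RNA. Each deposited list gives a score per peak in whole numbers, on a scale the sources do not state, and a summit. The score was used only as a rank within its list. Peaks are calls, so depth or expression near the calling threshold can add or remove them. The Input samples were not used here, and some members are counted but not reported here by name.

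A member was called if a peak overlapped its gene body by at least 1 bp. Covered length was the number of gene-body bases under peaks. Each test ran over all protein-coding genes with a peak in at least 1 library compared, with Benjamini-Hochberg adjustment. Calls were compared by Fisher's exact test and mean covered length by exact permutation, both two-sided. Members were named if called in at least 12 libraries, among the 5 smallest p between cell lines, called in all 4 libraries of one SETD2 side and at most 1 of the other, a paralogue pair with a peak, or never called. Other genes and all single regions were chosen after their values were seen. Members and lists were chosen with earlier results of these data known. Strand and starts came from a RefSeq promoter table. The steps were tested on simulated data. Software was Python 3.11.15 with pandas 2.3.3, NumPy 2.4.6, Matplotlib 3.10.9 and SciPy 1.17.1.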

Additional observations from a re-analysis of the deposited data

Results flagged for a closer look

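Of 38 groups of 4 libraries examined, over the per-library measures of the members and the covered lengths of RPL4, RPL8, RPL19, RPL41 and RPS24, 7 held a library whose gap to the nearest other was large against the range of its group (Dixon's criterion). Chance flags about 1 in 20 groups of continuous values, here 1.9. Counts with ties and lengths that change by a whole peak are not of that kind, so 7 and 1.9 are not directly comparable. In RPTEC SETD2KO-2 replicate 2, the shortest list, RPL41 covered 0 bp where the other 3 SETD2KO libraries had 260 to 290 bp, and RPL4 covered 610 bp where they had 850 to 898 bp. In 786-O SETD2KO-2 replicate 1, the longest list, RPL41 covered 686 bp against 290 to 307 bp. RPL19 covered 541 bp in RPTEC SETD2KO-1R replicate 1, against 346 to 371 bp in the other SETD2-expressing libraries. That library also had 3 core members with a peak over a start, against 1 in each of the others. Member peaks of 786-O SETD2KO-1R replicate 2 had a median score percentile of 81.5, against 73.5 to 74.1. In RPTEC WT replicate 2, 11.8% of the member summits lay in the first 10% of the gene body, against 18.6% to 19.5%.

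Peaks also lay over ribosomal protein pseudogenes, which the comparisons did not use. Of 574 such peaks, 277 overlapped no protein-coding gene, 8 to 27 in each library, over 57 pseudogenes. Whether their reads came from the pseudogene or from the parent mRNA was not tested.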

How the results depend on the processing

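Of 404 values recomputed under another setting, 380 stayed within 1.5 times the count or moved by less than the spread between libraries or, for the summit SD, between regions. This total does not measure how firm a call is. It includes counts of SETD2 calls past an adjusted p that were 0 over all genes, from a design with no exact p under 0.0286. A count can also stay while its genes change, and of the 4 covered-length calls RPL19 alone held under each setting. Among these, the share of members with a peak minus that of all genes changed sign, from -1.23 percentage points to 1.69 with each list reduced to the size of the shortest and to 3.59 with the upper 50% by score. The other 24 were counts of genes past a threshold. For covered length between the cell lines, 4 members passed, and 1 (RPL19) with each list reduced to the size of the shortest and 1 (RPL19) with the upper 50% of each list by score. Over all genes these settings gave 742 and 661 in place of 1525, and calls fell from 150 to 73 with the upper 50%. Leaving out 1 library gave 2 to 6 members. It was 2 without RPTEC WT replicate 2, SETD2KO-2 replicate 1, SETD2KO-2 replicate 2 or SETD2KO-1R replicate 1, and 6 without 786-O SETD2KO-1R replicate 2. For calls between the cell lines the leave-out range was 0 to 1, the 1 being RPS24 without 786-O SETD2KO-2 replicate 2. Between SETD2KO and SETD2-expressing libraries, 1 member reached an unadjusted p of 0.05 for covered length under some settings, in 786-O with each reduction of the lists and without SETD2KO-2 replicate 2 or SETD2KO-1R replicate 1, and in RPTEC with the upper 50% and without WT replicate 2 or SETD2KO-1 replicate 1. The cause of these changes was not tested. Same-numbered libraries shared only a number, since their deviations correlated at -0.446 to 0.54 over 12 pairs of lines and over 0.1 in 2. With the replicate block, 4 members passed for covered length between cell lines and 0 for calls. They were not the same 4, since RPL8 had an adjusted p of 0.0552 by exact permutation within replicate numbers. Between SETD2KO and SETD2-expressing libraries the block allows no p under 0.0556, so its count of 0 there says nothing. The mean number of core members with a peak over a start stayed between 8.71 and 11.1 in 786-O and between 1.86 and 2.29 in RPTEC when 1 library was left out. Without read counts the depth limits are unknown.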
